A study of Mus musculus with 16 samples.

Results

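The 6 brain-enriched miRNAs followed in mouse serum were mmu-miR-128-3p, mmu-miR-212-3p, mmu-miR-328-3p, mmu-miR-132-3p, mmu-miR-124-3p and mmu-miR-9-5p, written below without the species prefix. They are 6 of the 1881 mouse miRNAs on the array and were taken by name, as every spot that carries one of these names and is not a control. Serum came from male mice aged 4, 8, 36 and 58 weeks, with 4 mice at each age, to look for circulating miRNAs that change with ageing. The blood was drawn from the heart, the serum was spun off in separator tubes, and 1.0 ng of its RNA was labelled with Cy3 for a single-colour Agilent miRNA array. The labels name no strain, genotype or treatment. Each miRNA was read by 2 probes of 15 spots, so that 30 spots per array stand behind each value.

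MicroRNAs are short RNAs that bind partly matching sites in messenger RNAs and lower their translation or stability, mainly through the seed, the bases 2 to 8 from the 5′ end. Brain-enriched miRNAs are made mostly in neurons and glia, and small amounts may reach the blood in vesicles or bound to protein, beside miRNAs from blood cells, liver and other tissues. Serum pools all these sources: how many cells released a miRNA and how much each released cannot be told apart here, and the origin of a molecule in serum was not measured.

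The mature sequences show which of the miRNAs share a seed and how close the probes' targets are. RefSeq (build GRCm38.p6) gave 4 of the 6, printed 5′ to 3′ with the seed in capitals.
miR-128-3p: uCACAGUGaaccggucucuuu
miR-212-3p: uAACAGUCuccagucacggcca
miR-132-3p: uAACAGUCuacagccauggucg
miR-9-5p: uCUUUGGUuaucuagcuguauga
miR-212-3p and miR-132-3p form 1 seed family. They have the same length of 22 bases, 17 of them identical, and the first 9 are the same. Counted from 1 at the 5′ end, with the base of miR-212-3p first, they differ at C10A, U14C, C17U, C20U and A22G. Their genes are neighbours on the plus strand, Mir212 with its mature sequence at chr11:75173443-75173464 and Mir132 at chr11:75173723-75173744, so that the mature sequences start 280 bases apart. The mature miR-128-3p lies at chr1:128202404-128202424 on the plus strand (Mir128-1), within the span of the protein-coding gene R3hdm1. A second copy lies at chr9:112118644-112118664 on the minus strand (Mir128-2), within the span of Arpp21, which codes for a phosphoprotein regulated by cyclic AMP. The 3 copies of miR-9-5p lie on the plus strand at chr3:88215613-88215635, chr7:79505279-79505301 and chr13:83738821-83738843, each within the span of a long non-coding RNA gene.

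The arrays differed widely in background, which bears on every value below. The SD of the 1000 negative-control spots ranged from 1.82 to 4.45 on 13 arrays and reached 19.1 and 7.45 on replicates 1 and 4 of the 4-week mice and 59.3 on replicate 4 of the 36-week mice. Feature Extraction marked those 3 arrays for evaluation, and results are given with and without them. The arrays of 4 and 8 weeks shared slide 1 and those of 36 and 58 weeks shared slide 2, so that age and slide cannot be told apart outside the pairs 8 against 4 weeks and 58 against 36 weeks. Between 163 and 360 miRNAs were detected per array, 24 of them on all 16 arrays. Signals of different miRNAs depend on their probes and are not set against each other.

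The 6 miRNAs fell into 3 that were detected in serum and 3 that were not. miR-328-3p, which is made in the brain and also in the heart and has been described in the mouse as a repressor of the beta-secretase gene Bace1, was detected on 16 of 16 arrays. miR-212-3p, which neurons induce with activity through the factor CREB, was detected on 13 of 16. It was called on 3 of 4 arrays at 4 weeks, 4 of 4 at 8 weeks, 3 of 4 at 36 weeks and 3 of 4 at 58 weeks. miR-128-3p, which restrains the excitability of neurons in the mouse, was detected on 11 of 16, with 2 of 4 arrays at 4 weeks and 3 of 4 at each later age. The missing calls of both lay partly on the arrays of high background: neither was called on 4-week replicate 4 or 36-week replicate 4, nor on 58-week replicate 2. miR-128-3p was also not called on 4-week replicate 1 and 8-week replicate 3, and 8-week replicate 3 had the highest background of its age.

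miR-132-3p, miR-124-3p and miR-9-5p were detected on 0 of 16 arrays, as were 69.6% of all 1881 miRNAs. None of their 480 spots each was well above background, against 410 of 480 spots of miR-328-3p, 143 of miR-212-3p and 126 of miR-128-3p. Another criterion was a mean signal above 3 times the SD of the negative-control spots, counted from 0. By it the 6 miRNAs were found on 16 arrays (miR-328-3p), 14 (miR-212-3p), 11 (miR-128-3p) and 0 for each of the other 3. The mean of the negative-control spots was itself above 0, from 2.95 on 4-week replicate 3 to 59.4 on 36-week replicate 4. A signal that met this criterion may therefore lie within 3 SD of that mean. At this signal over background miR-132-3p, miR-124-3p and miR-9-5p were not detectable, which does not show that they were absent.

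**Figure D1:**
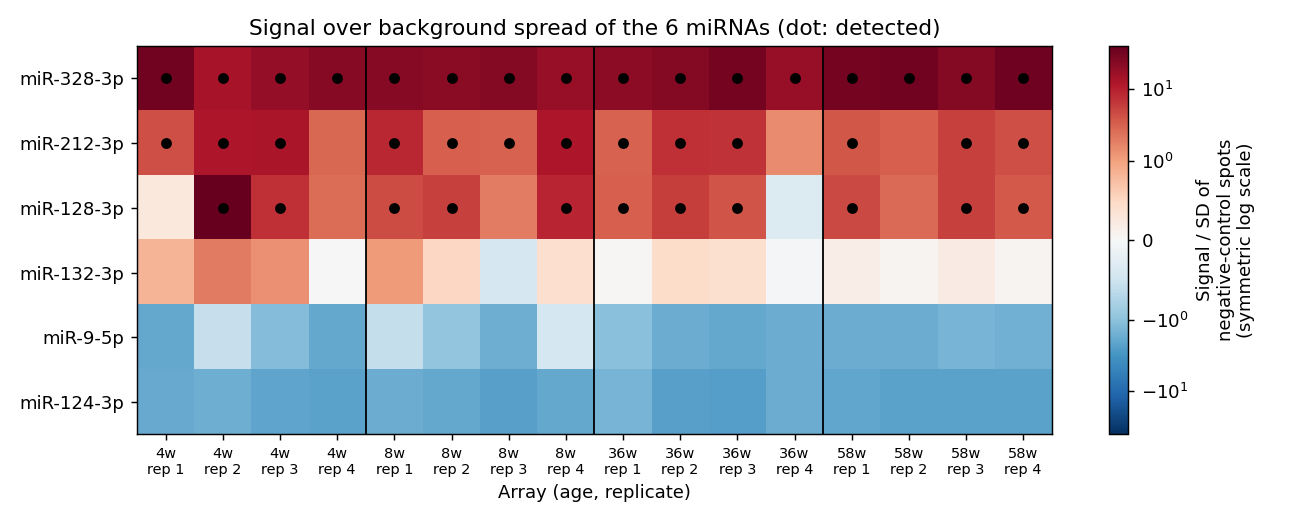
Signal of each of the 6 miRNAs on each of the 16 arrays, divided by the SD of the negative-control spots of that array (colour, symmetric log scale; rows are miRNAs, columns are arrays grouped by age). Black dots mark the deposited detection call: 16 arrays for miR-328-3p, 13 for miR-212-3p, 11 for miR-128-3p and none for the other 3.

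miR-132-3p, the seed partner of miR-212-3p and likewise induced by neuronal activity, had deposited signals near 0. They were 16, 4.03, 3.53 and 0.135 at 4 weeks, 2.21, 0.910, -1.46 and 0.802 at 8 weeks, 0.0594, 1.71, 1.69 and -3.02 at 36 weeks, and 0.710, 0.297, 0.458 and 0.218 at 58 weeks. Relative to the SD of the negative-control spots they lay between -0.411 and 1.99, with a median of 0.296. The highest, on 4-week replicate 1, was on an array whose SD was 19.1. Whether the probes of miR-132-3p and miR-212-3p take up part of each other's RNA was not tested.

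miR-124-3p, the most abundant miRNA of neurons and a repressor of non-neuronal transcripts, had negative background-subtracted signals on every array, from -99.5 to -3.37 with a median of -7.17. miR-9-5p, which acts in neural progenitors and represses the nuclear receptor Tlx, was likewise below 0 on every array, from -104 to -0.833 with a median of -5.21. Both probes of each had negative signals on all 16 arrays. The lowest signals of both were on 36-week replicate 4, the array with the highest background.

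Levels of the 3 detected miRNAs are given below as log2 of the signal after scaling, which set the 75th percentile of the 24 always-detected miRNAs equal on all arrays. Scaled signals under 3.93 were set to that floor, 1.97 on the log2 scale, and 285 miRNAs passed the detection filter (detected on at least 3 of 4 arrays of at least 1 age) and were tested. miR-328-3p, miR-212-3p and miR-128-3p were among them.

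miR-328-3p had log2 signals of 8.82, 4.70, 5.09 and 6.54 at 4 weeks, 5.44, 5.44, 6.79 and 4.72 at 8 weeks, 6.49, 6.29, 6.89 and 10.12 at 36 weeks, and 7.41, 7.77, 6.24 and 7.29 at 58 weeks (replicates 1 to 4). The highest values at 4 and at 36 weeks were on the arrays of highest background, and the 4 ages overlapped. The 4-week mice averaged 6.29 ± 1.86, the 8-week mice 5.60 ± 0.87, the 36-week mice 7.45 ± 1.80 and the 58-week mice 7.18 ± 0.66 (SD, n = 4 each). In order of level, 36 weeks came first, then 58, 4 and 8 weeks, and the differences between neighbours, 0.27, 0.89 and 0.69, were smaller than the larger SD of each pair. On the 13 arrays not marked for evaluation the 4-week mice averaged 4.89 ± 0.28 (n = 2), the 8-week mice 5.60 ± 0.87 (n = 4), the 36-week mice 6.55 ± 0.30 (n = 3) and the 58-week mice 7.18 ± 0.66 (n = 4). There the order followed age.

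Before scaling, the deposited signal of miR-328-3p was 621, 26.7, 47.6 and 168 at 4 weeks, 45.7, 39.8, 83.1 and 34.6 at 8 weeks, 56.9, 90.6, 132.1 and 1082 at 36 weeks, and 138, 126, 54.3 and 95.9 at 58 weeks. As a multiple of the SD of the negative-control spots it spanned 13.2 to 32.6 at 4 weeks, 17.8 to 23.5 at 8 weeks, 18.3 to 30.1 at 36 weeks and 24.4 to 33.1 at 58 weeks. On this scale the 2 brightest arrays, 4-week replicate 1 at 32.6 and 36-week replicate 4 at 18.3, lay within the range of the others.

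miR-212-3p had log2 signals of 5.93, 4.56, 4.56 and 3.53 at 4 weeks, 4.06, 2.70, 3.89 and 4.15 at 8 weeks, 3.77, 4.61, 4.79 and 6.51 at 36 weeks, and 4.37, 4.47, 4.09 and 4.36 at 58 weeks. All 4 ages overlapped, and the 58-week values were the closest together. The highest values at 4 and at 36 weeks, 5.93 and 6.51, were on the arrays of highest background. The value of 6.51 had no detection call and lay at 1.49 SD of the negative-control spots. The 4-week mice averaged 4.64 ± 0.99, the 8-week mice 3.70 ± 0.67, the 36-week mice 4.92 ± 1.15 and the 58-week mice 4.33 ± 0.16 (SD, n = 4 each). The order was 36, 4, 58 and 8 weeks, and neighbours differed by less than the larger of their SDs. Without the marked arrays the means were 4.56 at 4 weeks (n = 2) and 4.39 ± 0.54 at 36 weeks (n = 3), with 8 and 58 weeks as above.

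miR-128-3p had log2 signals of 1.97, 6.25, 3.80 and 3.37 at 4 weeks, 3.10, 3.45, 3.18 and 3.71 at 8 weeks, 3.82, 4.22, 3.99 and 1.97 at 36 weeks, and 4.71, 4.20, 4.09 and 4.11 at 58 weeks. The 2 values of 1.97 are the floor, on 4-week replicate 1 and 36-week replicate 4, and 4-week replicate 2 was the highest of all 16 arrays. The 4-week mice averaged 3.85 ± 1.78, the 8-week mice 3.36 ± 0.28, the 36-week mice 3.50 ± 1.03 and the 58-week mice 4.28 ± 0.29 (SD, n = 4 each). The order was 58, 4, 36 and 8 weeks, and neighbours differed by less than the larger of their SDs. Without the marked arrays the means were 5.02 ± 1.73 at 4 weeks (n = 2) and 4.01 ± 0.20 at 36 weeks (n = 3).

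**Figure D2:**
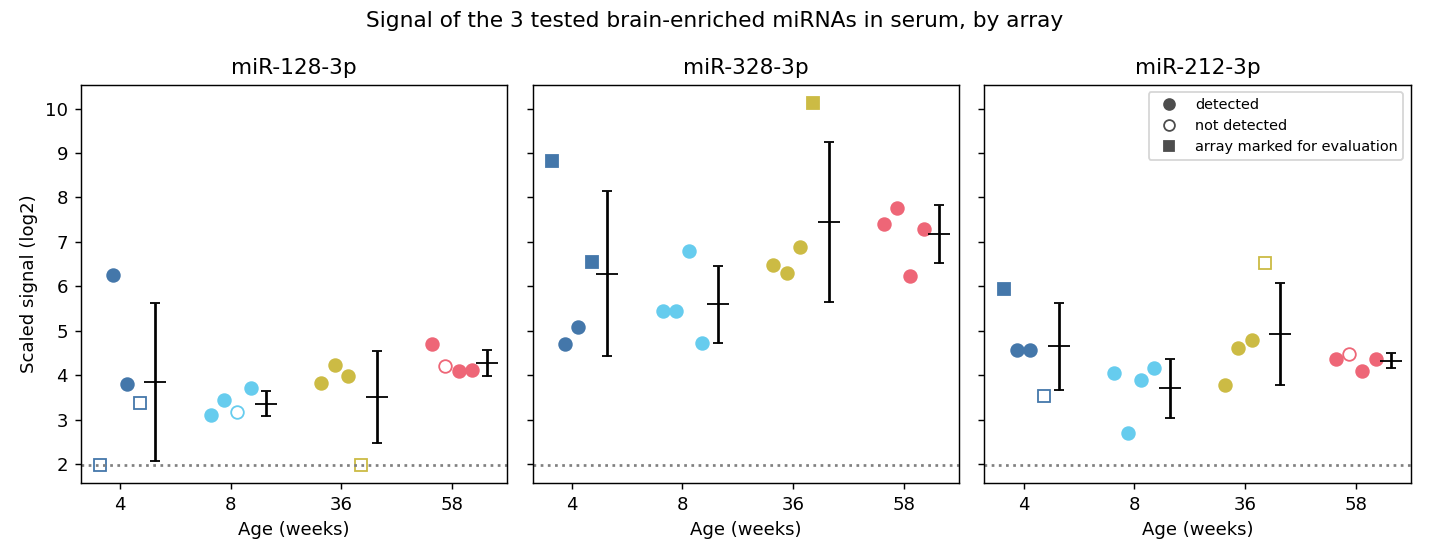
Log2 scaled signal of miR-128-3p, miR-328-3p and miR-212-3p on each array against age in weeks (ages equally spaced), with the mean and SD of 4 arrays beside the points and the floor of 1.97 as a dotted line. Open symbols were not detected and squares are the 3 arrays marked for evaluation, which hold the highest miR-328-3p values of 4 and 36 weeks (8.82 and 10.12).

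No brain-enriched miRNA passed any age comparison in limma (Benjamini-Hochberg over the 285 tested miRNAs, threshold 0.05). Of 24 tests of the 3 miRNAs (an F test over 4 ages, the 6 pairs of ages and a slope per doubling of age), 0 passed after adjustment and 0 had an unadjusted p under 0.05. The smallest adjusted p was 0.153. An unadjusted p under 0.05 was held by 4.56% of all tested miRNAs in the F test, 8.77% for the slope, 2.11% for 8 against 4 weeks, 3.51% for 36 against 4, 4.56% for 58 against 4, 29.8% for 36 against 8, 5.26% for 58 against 8 and 1.75% for 58 against 36 weeks. Few of all tested miRNAs passed either: 0.351% in the F test, 0.351% for the slope, 0.351% for 36 against 4 weeks, 0.351% for 58 against 4 weeks and 0% in each of the other 4 pairs. These counts do not show that the levels were equal, since the SE of a difference between ages was 0.61 for miR-212-3p, 0.73 for miR-128-3p and 0.94 for miR-328-3p on the log2 scale.

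Within slide 1, all 3 had lower means at 8 than at 4 weeks, by less than their spread. The differences were -0.69 ± 0.94 (SE) for miR-328-3p (limma adjusted p = 0.755), -0.95 ± 0.61 for miR-212-3p (0.536) and -0.49 ± 0.73 for miR-128-3p (0.788). The median over all 285 tested miRNAs was -0.72, in the same direction. Without the marked arrays the difference was 0.70 for miR-328-3p, -0.86 for miR-212-3p and -1.66 for miR-128-3p (limma unadjusted p = 0.00973, adjusted 0.285), beside a median of -0.34. That left 2 arrays at 4 weeks, with log2 signals of miR-128-3p at 3.80 and 6.25. With the marked arrays kept, the difference of miR-128-3p was 0.31 without 4-week replicate 2.

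Within slide 2, miR-328-3p differed by -0.27 ± 0.94 between 58 and 36 weeks (limma adjusted p = 0.909), miR-212-3p by -0.60 ± 0.61 (0.717) and miR-128-3p by 0.78 ± 0.73 (0.717), beside a median of -0.52 over all tested miRNAs. The sign of miR-328-3p rested on 36-week replicate 4: without that array the difference was 0.62. Without it the difference was -0.065 for miR-212-3p and 0.27 for miR-128-3p, beside a median of 0.048.

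In the oldest against the youngest mice, miR-328-3p was 1.85-fold higher at 58 than at 4 weeks (log2 difference 0.89 ± 0.94 SE, limma adjusted p = 0.998), beside a median of -0.0031 over all tested miRNAs. miR-128-3p differed by 0.43 ± 0.73 and miR-212-3p by -0.32 ± 0.61 (adjusted p = 0.998 for both). Without 4-week replicate 1 these were -0.20 and 0.11, and without the marked arrays -0.75 and -0.23. Without 4-week replicate 1 the difference of miR-328-3p was 1.74, and without 4-week replicate 2 it was 0.36. The slopes per doubling of age were 0.38 ± 0.21 for miR-328-3p (adjusted p = 0.525), 0.09 ± 0.16 for miR-128-3p (0.696) and 0.07 ± 0.15 for miR-212-3p (0.731), where the median of all was 0.12.

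Between 36 and 8 weeks lay the 2 smallest p-values, 1.22 ± 0.61 for miR-212-3p (limma adjusted p = 0.153, unadjusted 0.0640) and 1.85 ± 0.94 for miR-328-3p (adjusted p = 0.154, unadjusted 0.0679). In that pair 29.8% of all tested miRNAs had an unadjusted p under 0.05 and the median difference was 0.71. Without 36-week replicate 4 the differences were 0.69 for miR-212-3p and 0.96 for miR-328-3p, beside a median of 0.74. With the background SD of each array as a term in the fit they were 0.45 and 0.11, beside a median of 0.35. By quantile normalization they were -0.37 and 1.29, beside a median of -0.33. Between 58 and 8 weeks, which held no marked array, miR-328-3p differed by 1.58 ± 0.94 (limma adjusted p = 0.408, unadjusted 0.114). For miR-212-3p the difference was 0.63 ± 0.61 (0.488), beside a median of 0.71. Without the marked arrays of the other ages, limma gave miR-328-3p an unadjusted p of 0.00452 (adjusted 0.103). With the background term its difference was 1.02, beside a median of 0.69.

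One member separated a pair of ages without overlap. All 4 values of miR-128-3p at 58 weeks (4.09 to 4.71) lay above all 4 at 8 weeks (3.10 to 3.71), a log2 difference of 0.92 ± 0.73 that did not pass in limma (adjusted p = 0.408). The 2-sided exact permutation test gave p = 0.0286, the smallest that 4 arrays against 4 can give, and the 1 of 18 such tests of the 3 miRNAs under 0.05, with no adjustment. Of all tested miRNAs, 11.2% did not overlap between 58 and 8 weeks, and these ages lay on different slides. The deposited signals, before scaling, overlapped: 10.6 to 21.2 at 58 weeks and 6.80 to 17.2 at 8 weeks. The log2 difference was 0.37 without scaling and -0.19 by quantile normalization, beside medians of 0.16 and 0.049 over all tested miRNAs. For miR-128-3p, 58-week replicate 2 and 8-week replicate 3 had no detection call. None of the 3 separated any other pair, in which 1.4% to 6.67% of all tested miRNAs did (3.86% for 8 against 4 weeks, 1.4% for 36 against 4, 6.67% for 58 against 4, 3.86% for 36 against 8 and 4.21% for 58 against 36 weeks).

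Leaving out the 3 marked arrays brought miR-328-3p past the threshold and left miR-212-3p and miR-128-3p short of it. The difference between 58 and 4 weeks was then 2.28 ± 0.56 (SE) on the log2 scale (limma adjusted p = 0.0258), over 4 arrays at 58 weeks and 2 at 4 weeks. In that comparison 14.3% of 272 tested miRNAs passed, and 0.735% passed with the higher level at 58 weeks. The slope per doubling of age was 0.55 ± 0.11 (adjusted p = 0.0124), where 51.8% of the 272 passed and 34.9% passed with a rising slope, so that a rising slope was common among all miRNAs. One alternative, chosen after the data had been seen, put the log2 SD of the negative-control spots as a term in the fit of all 16 arrays. The difference between 58 and 4 weeks was then 1.59 ± 0.38 (adjusted p = 0.0183, 5.61% of 285 passed, 1.05% with the higher level at 58 weeks). The slope was 0.33 ± 0.09 (adjusted p = 0.0473, 2.46% passed, 0.702% with a rising slope). With this term and without the marked arrays the difference was 1.61 ± 0.42 (adjusted p = 0.0327, 11% of all tested passed, 1.1% with the higher level at 58 weeks), and the slope did not pass. Over all 16 arrays, the slope with slide as a block was -0.59 (limma adjusted p = 0.700). Slide as a block was not fitted without the marked arrays. Without them miR-328-3p differed by 0.70 between 8 and 4 weeks (limma adjusted p = 0.696) and 0.62 between 58 and 36 weeks (0.824). Over all 16 arrays without any scaling, the difference between 58 and 4 weeks was -0.14, while the median of all tested miRNAs moved to -0.95.

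With array weights, which give noisier arrays less influence in limma and whose estimation stopped before reaching its tolerance, members passed in 6 comparisons, in 5 of them together with most of all tested miRNAs. miR-328-3p passed the F test (76.5% of all 285 tested passed), the slope (65.6% passed, 46.3% with a rising slope) and 58 against 4 weeks (62.1% passed, 41.8% with the higher level at 58 weeks). It also passed 58 against 36 weeks, where fewer of all tested did (15.1% passed, 3.16% with the higher level at 58 weeks), at a log2 difference of 1.03 (adjusted p = 0.0332). miR-328-3p and miR-212-3p passed 36 against 8 weeks, with differences of 0.98 and 0.92 (63.2% passed, 54.4% with the higher level at 36 weeks). All 3 passed 58 against 8 weeks, with differences of 2.01 for miR-328-3p, 0.86 for miR-212-3p and 1.03 for miR-128-3p (67.7% passed, 51.6% with the higher level at 58 weeks).

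**Figure D3:**
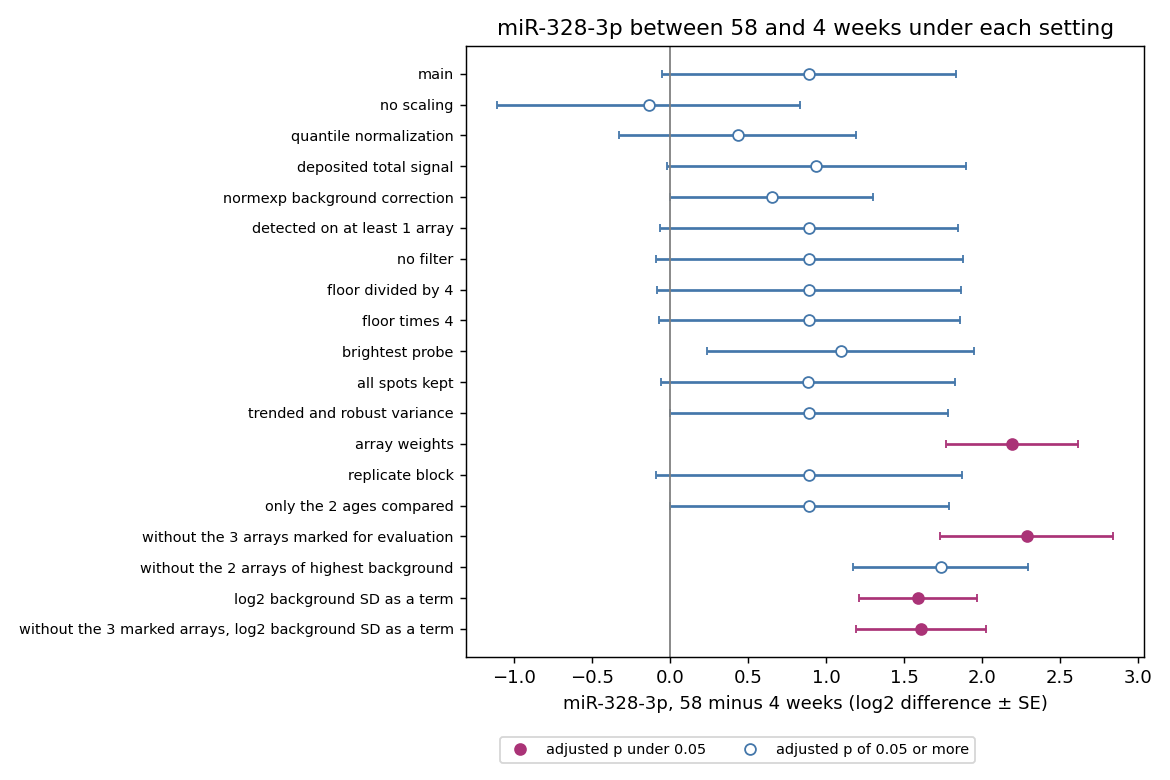
Log2 difference of miR-328-3p between 58 and 4 weeks (points, bars are SE) with the processing as described in the top line (main) and with 1 or 2 choices changed in each line below. Filled points have a limma adjusted p under 0.05: array weights (2.19), the 3 marked arrays left out (2.28), the background SD as a term (1.59) and both of the last (1.61).

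The signal of miR-328-3p moved with the background of the array. Over 16 arrays its log2 signal correlated with the log2 SD of the negative-control spots (Pearson r = 0.882, permutation p = 4e-05, adjusted over the 3 tested miRNAs 0.00012; Spearman rho = 0.856, permutation p = 0.0001, adjusted 0.0003). Within slides r was 0.929 on slide 1 (exact p = 0.00972, adjusted 0.0292) and 0.929 on slide 2 (exact p = 0.0248, adjusted 0.0371), with 8 arrays each. Spearman rho fell short of the threshold on slide 1, at 0.619 (exact permutation p = 0.115, adjusted 0.345). On slide 2 rho was 0.786 (exact permutation p = 0.0279, adjusted 0.0419). Without the 2 arrays farthest from the median background, r was 0.682 (permutation p = 0.00622, adjusted 0.0187). Without the 3 marked arrays it was 0.814 (n = 13, permutation p = 0.00098, adjusted 0.00294). On those 13 arrays the SD was 2.03 to 2.59 at 4 weeks, 1.82 to 3.54 at 8 weeks, 2.76 to 4.39 at 36 weeks and 2.23 to 4.45 at 58 weeks. Its part in the level of miR-328-3p was not tested beyond the fits with the background term above. Among the 285 tested miRNAs 115 had a higher r with background than miR-328-3p, and 108 had an r above 0.9.

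For miR-212-3p the relation was weaker without the arrays of high background. Pearson r was 0.783 over 16 arrays (permutation p = 0.00264, adjusted 0.00396) and Spearman rho 0.509 (p = 0.0479 by permutation, adjusted 0.0718). Within slides r was 0.586 on slide 1 (exact p = 0.187) and 0.965 on slide 2 (exact p = 0.00957, adjusted 0.0287). It was 0.173 (permutation p = 0.576) without the 2 farthest arrays and 0.520 without the 3 marked ones (n = 13, permutation p = 0.0451, adjusted 0.0677). Over 16 arrays, 122 of the 285 tested miRNAs had a higher r than miR-212-3p.

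miR-128-3p went the other way over all arrays, again through the extremes. Pearson r was -0.639 (permutation p = 0.00744, adjusted 0.00744) and Spearman rho -0.149 (permutation p = 0.583). Within slides r was -0.583 on slide 1 (exact p = 0.0705) and -0.884 on slide 2 (exact p = 0.225). Without the 2 farthest arrays r was -0.102 (permutation p = 0.776). Both arrays at the floor were among the marked ones.

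**Figure D4:**
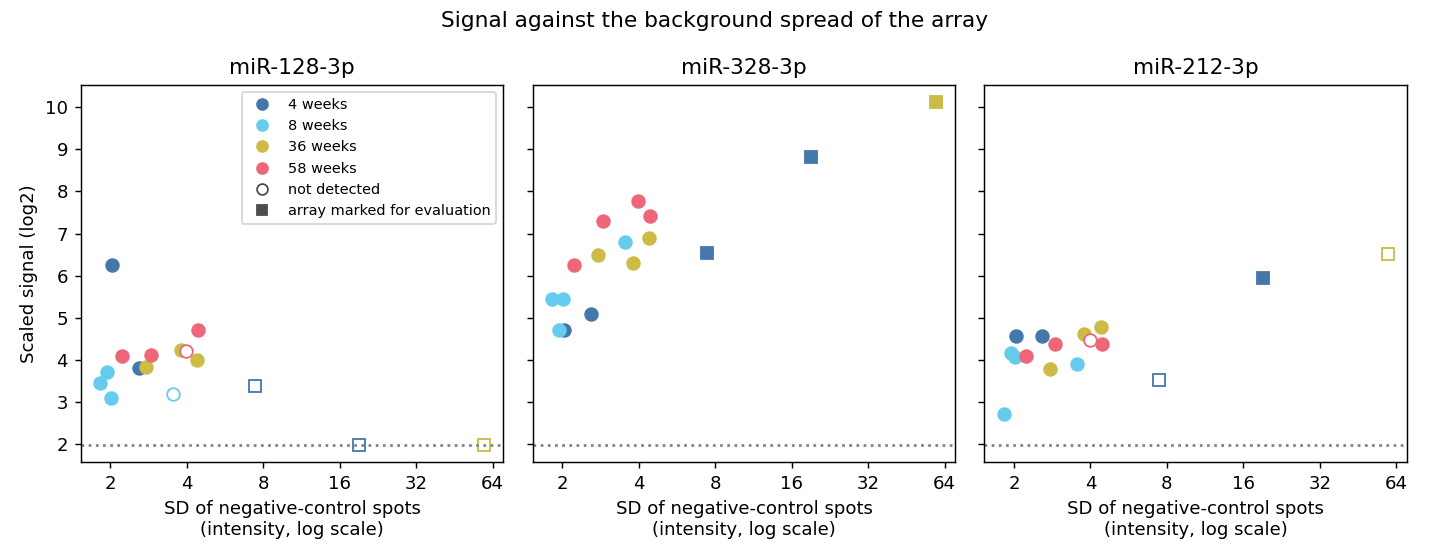
Log2 scaled signal of miR-128-3p, miR-328-3p and miR-212-3p against the SD of the negative-control spots of the same array (log axis), coloured by age, with open symbols where not detected and squares for the 3 arrays marked for evaluation. Over 16 arrays r was -0.639 for miR-128-3p, 0.882 for miR-328-3p and 0.783 for miR-212-3p.

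The 2 probes of each of the 3 detected miRNAs moved in the same direction in 7 of 7 comparisons (the slope and the 6 pairs). For miR-328-3p the sizes differed: between 36 and 8 weeks the dimmer probe, with a median signal of 40.7, gave 3.17 and the brighter one, with a median of 128, gave 1.52. Between 8 and 4 weeks they gave -1.91 and -0.37.

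As a description over the 16 arrays, which share the background differences above, the miRNAs most like miR-328-3p in log2 signal were let-7d-3p (r = 0.995), miR-7022-3p (r = 0.970) and miR-326-3p (r = 0.967). Those most like miR-212-3p were miR-344i (r = 0.954), miR-1198-5p (r = 0.947) and miR-425-5p (r = 0.90). Those most like miR-128-3p were miR-130a-3p (r = 0.842), miR-107-3p (r = 0.762) and miR-8090 (r = 0.739). Between the 3 themselves r was 0.688 for miR-328-3p with miR-212-3p, -0.568 for miR-328-3p with miR-128-3p and -0.350 for miR-212-3p with miR-128-3p. On the 13 arrays not marked these were 0.198, -0.0852 and 0.454.

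The partner arms, made from the opposite strand of the same hairpins, were mostly undetected, as were 69.6% of all 1881 miRNAs. Of 7 partner arms on the array, 6 were detected on no array and none passed the detection filter. miR-328-5p was detected on 4 arrays, 2 of them at 4 weeks and 2 at 8 weeks.

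Other miRNAs known for high levels in brain were also mostly undetected, again beside 69.6% of the whole array. Of 24 such names, 23 were on the array, 20 were detected on no array, and 3 were detected and tested, none passing any comparison. miR-149-5p was detected on 16 arrays, miR-346-5p on 10 and miR-92b-3p on 7. Between 58 and 4 weeks they differed by -0.14 ± 0.97 (SE), -0.06 ± 1.24 and 0.17 ± 1.25 on the log2 scale (limma adjusted p = 0.998 for each). Their r with the log2 background SD was 0.957, 0.944 and 0.940, above that of miR-328-3p.

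Markers of blood cells were detected in these sera, where 69.6% of all 1881 miRNAs were detected on no array. Of 5 red cell miRNAs on the array 4 were detected and 3 tested, none passing, and miR-451a, made in erythroid cells, was detected on all 16 arrays. The summed scaled signal of the red cell list spanned 4790 to 8077 at 4 weeks, 2696 to 5122 at 8 weeks, 2783 to 6122 at 36 weeks and 3920 to 7440 at 58 weeks. The log2 ratio of miR-451a over miR-23a-3p, used to follow red cell RNA in serum, averaged 3.35 ± 0.74 in the 4-week mice, 2.89 ± 0.62 in the 8-week mice, 3.26 ± 0.90 in the 36-week mice and 2.73 ± 0.24 in the 58-week mice (SD, n = 4 each). Of 6 platelet and myeloid miRNAs 4 were detected and tested, none passing. Their summed signal was 374 to 507 at 4 weeks and 143 to 669 at 8 weeks. It was 200.1 to 862 at 36 weeks and 695 to 769 at 58 weeks. The sum at 58 weeks overlapped neither that at 4 weeks nor that at 8 weeks, and it was not tested. Of all single tested miRNAs, 6.67% did not overlap between 58 and 4 weeks and 11.2% between 58 and 8 weeks. Of 3 liver miRNAs 3 were detected and 2 tested, and of 5 striated muscle miRNAs 2 were detected and tested, none passing. Their part in the levels of the brain-enriched miRNAs was not tested.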

How the data were processed

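The deposited files are the scanner output of 16 single-colour arrays (58594 spots each), made with Agilent Feature Extraction (11.5 in the submitters' processing notes, and 11.5.1.1 per the file headers). Their spot intensity values are the authors' deposited, background-subtracted signals. Detection calls, outlier flags, control spots and array marks are other deposited columns. Outlier spots (2.32% to 4.48% per array) were left out, and 0 spots were saturated. Signals were averaged over spots, then probes. Arrays were scaled to 1 common 75th percentile of the 24 always-detected miRNAs, floored at 3.93 and put on the log2 scale. The 285 miRNAs detected on at least 3 of 4 arrays of an age were fitted with limma 3.58.1 (R 4.3.3; lmFit, eBayes) over all arrays, with Benjamini-Hochberg adjustment per comparison and a threshold of 0.05. The fit was tested on simulated data with independent normal noise. Those data held no differences in background or slide between arrays, so that they cannot show how the fit handles these. Correlations used 100000 permutations (exact within slides).

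The members, lists and tests were chosen with earlier results of these data known. Text names all 6 members, partner arms and other brain-enriched miRNAs detected on at least 4 arrays, and the 3 miRNAs most correlated with each tested member. Of the blood cell, liver and muscle lists it names miR-451a alone. RefSeq sequences came from build GRCm38.p6. The number of arrays limits the precision.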

Additional observations from a re-analysis of the deposited data

Results flagged for a closer look

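Among 28 sets of 4 arrays (the background and each miRNA at each age), 6 held 1 array far from the other 3, by a gap that about 1 set in 20 would show by chance (1.4 of 28). On 36-week replicate 4 there were 4 such values. The SD of its negative-control spots was 59.3, against 2.76 to 4.39 on the other arrays of that age. The log2 signal of miR-328-3p was 10.12 there, against 6.29 to 6.89. The deposited signal of miR-124-3p was -99.5, against -10.4 to -3.84, and that of miR-9-5p was -104, against -8.16 to -2.86. Divided by the SD of the negative-control spots, these 2 lay within the range of the other arrays of that age. They were -1.68, against -2.38 to -1.39, and -1.76, against -1.86 to -1.04. Values of the same array share its background, so that the flags are not independent. On 8-week replicate 3 there were 2 such values. The SD of its negative-control spots was 3.54, against 1.82 to 2.01, and the signal of miR-124-3p was -8.12, against -3.72 to -3.37. Divided by the SD that signal was -2.29, against -1.91 to -1.75.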

How the results depend on the processing

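Alternatives that changed no count of passing members were quantile normalization, no scaling, normexp (on median signals), the total signal as deposited, both filters, both floors, the brightest probe, all spots, the variance model, slide as a block, only the 2 ages compared and leaving out the 2 arrays of highest background. With the replicate number as a block, 0 members passed in each of the 8 comparisons (miR-328-3p slope 0.38, adjusted p = 0.560). Same-numbered arrays did not deviate together (median r = -0.301, 2 of 16 arrays closest to their own number). Leaving out each array in turn gave 0 to 0 passing members in every comparison. The counts of 0 became, with array weights, 1 in the F test, 1 for the slope, 1 for 58 against 4 weeks, 2 for 36 against 8, 3 for 58 against 8 and 1 for 58 against 36 weeks (76.5%, 65.6%, 62.1%, 63.2%, 67.7% and 15.1% of all tested then passed). They became 1 for the slope and 1 for 58 against 4 weeks without the 3 marked arrays. The same was so with the background term, and with both changes 1 for 58 against 4 weeks. The background term, alone and without the marked arrays, and the relation to background without them were added after seeing the data. Scaling to a percentile over all miRNAs was not run, since that percentile was not above 0 on every array. Signs that reversed follow, and the cause was not tested. For miR-128-3p, the slope was -0.12 without scaling, -0.025 by quantile, -0.051 at the higher floor and -0.0054 with both added changes. Its difference was 0.29 (8 against 4 weeks, quantile), 0.40 (36 against 4, normexp) and -0.19 (58 against 8, quantile). For 36 against 8 weeks it was -0.045 without scaling, -0.42 by quantile and -0.36 at the lower floor. For 58 against 4 weeks it was -0.56 without scaling, -0.26 at the higher floor, -0.12 with array weights, -0.75 without the marked arrays, -0.20 without the 2 arrays of highest background, -0.00080 with the background term and -0.67 with both. For miR-328-3p, the slope was -0.59 with slide as a block and the difference between 58 and 4 weeks -0.14 without scaling. For 8 against 4 weeks it was 0.18 with array weights, 0.70 without the marked arrays, 0.16 without the 2 arrays, 0.57 with the background term and 0.75 with both. For 58 against 36 weeks it was 0.053 by the brightest probe, 1.03 with array weights (adjusted p = 0.0332), 0.62 without the marked arrays, 0.62 without the 2 arrays, 0.91 with the background term and 0.79 with both. For miR-212-3p, the slope was -0.14 without scaling, -0.018 by quantile, -0.14 by total signal, -0.92 with slide as a block and -0.051 with both. By quantile its differences were 0.45 (8 against 4 weeks), 0.10 (58 against 4), -0.37 (36 against 8), -0.35 (58 against 8) and 0.013 (58 against 36). For 36 against 4 weeks it was -0.27 without scaling, -0.60 by total signal, -0.035 with array weights, -0.17 without the marked arrays and -0.52 with both. It was also -0.071 (58 against 8, total signal), 0.0067 (58 against 36, both), 0.44 (58 against 4, normexp) and 0.11 (58 against 4, without the 2 arrays). Leaving out each array in turn moved slopes from -0.0075 to 0.25 (miR-128-3p), 0.28 to 0.56 (miR-328-3p) and 0.0029 to 0.17 (miR-212-3p). For miR-128-3p, differences spanned -1.12 to 0.31 (8 against 4), -0.97 to 0.45 (36 against 4), -0.20 to 1.23 (58 against 4), -0.10 to 0.65 (36 against 8), 0.77 to 1.04 (58 against 8) and 0.27 to 1.02 (58 against 36). For miR-328-3p they spanned -1.22 to 0.16, 0.27 to 2.005, 0.36 to 1.74, 0.96 to 2.25, 1.29 to 1.98 and -0.66 to 0.62, and for miR-212-3p -1.32 to -0.52, -0.25 to 0.71, -0.69 to 0.11, 0.69 to 1.61, 0.29 to 0.78 and -0.98 to -0.07, in the same order of pairs. By Pearson r, the relation to background fell short of the threshold for miR-128-3p within slides (-0.583 and -0.884) and without the 2 farthest arrays (-0.102). It reversed to 0.0590 without the marked ones. For miR-212-3p r fell short at 0.586 (slide 1), 0.173 (without the 2 farthest) and 0.520 (without the marked arrays). By Spearman rho, miR-328-3p fell short on slide 1 (0.619).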
